A study of Mus musculus with 12 samples.

Results

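The comparison described here is that of hippocampal slices 3 hr after induction of chemical long-term potentiation (LTP) with control slices of the same age in vitro, and it used 6 of the 12 libraries of the series, 3 from LTP slices and 3 from controls. The libraries were chosen by their labels alone. All came from hippocampus of wild type C57BL/6 mice, 2 to 3 months old, and the methods describe male animals and trimming of the dentate gyrus from the slices. LTP slices received forskolin, which activates adenylyl cyclase, at 50 uM for 5 min, and then forskolin with 30 mM KCl and 10 mM calcium up to 10 min. Control slices received 0.2% DMSO, the vehicle, for 10 min, and no group received KCl and calcium without forskolin. Each animal gave 1 LTP and 1 control library. According to the methods, libraries were made only from slices in which qPCR had shown a rise of Arc and of a short Homer1 isoform and no change of Hprt, so these genes were used to select the samples. The same scheme at 1 hr makes up the rest of the series and serves below as a second time point. Values at 1 hr come from 5 libraries, without 1 hr control replicate 2, which the authors set aside as an outlier.

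Long-lasting LTP needs new transcription. Synaptic calcium entry and cAMP act on kinases that phosphorylate CREB and other transcription factors, which first switch on the immediate early genes. The products of these genes, many of them transcription factors themselves, are followed by effectors that act at the synapse, in the extracellular matrix and as brakes on the signalling that started the response. Whole slices hold neurons and glia, and in such bulk RNA a change in the number of cells of a type and a change of RNA per cell cannot be told apart.

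The 3 hr libraries held from 39005797 to 50815001 counts. The first principal component, with 35.3% of the variance, separated LTP from control libraries, whereas the second, with 30.3%, set LTP replicate 2 (score 32.1) against LTP replicate 3 (-26.0). Among 10 lists of cell type markers, 0 markers were at zero in every library. Summed CPM (counts scaled to a common library size) of the 15 pyramidal neuron markers ran from 3965 to 4066 in controls and from 3616 to 5042 in LTP slices. The 9 dentate granule cell markers, which the trimming should lower but which were present, ran from 332 to 399 and from 320 to 498. For the 14 astrocyte markers the ranges were 6061 to 6229 and 5657 to 6526, and for the 16 microglial markers 325 to 358 and 299 to 336, so no summed list separated the groups except that of the 14 interneuron markers, at 914 to 971 in controls and 973 to 1003 in LTP slices.

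Of 17508 genes tested, 888 were higher and 267 lower in LTP slices (a fold change above 1.2 at a Benjamini-Hochberg adjusted p below 0.1, quasi-likelihood test of edgeR), which is 5.07% and 1.53% of genes. LTP and control libraries did not overlap in 26.5% of all genes tested. The rises were larger than the falls: the median log2 fold change was 0.51 among genes called higher and -0.35 among genes called lower, and 151 genes rose more than 2-fold against 17 that fell as far. An adjusted p under 0.01 was reached by 126 rises and 6 falls. Nearly all falls, 259 of 267, were protein-coding genes, against 676 of the 888 rises. The remaining 212 rises were of other biotypes, 7.69% of the 2758 such genes tested, and among these were 28 of 124 microRNA loci, 28 of 73 sense intronic transcripts and 8.16% of lincRNAs. Other biotypes held 8 falls (0.29%).

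**Figure D1:**
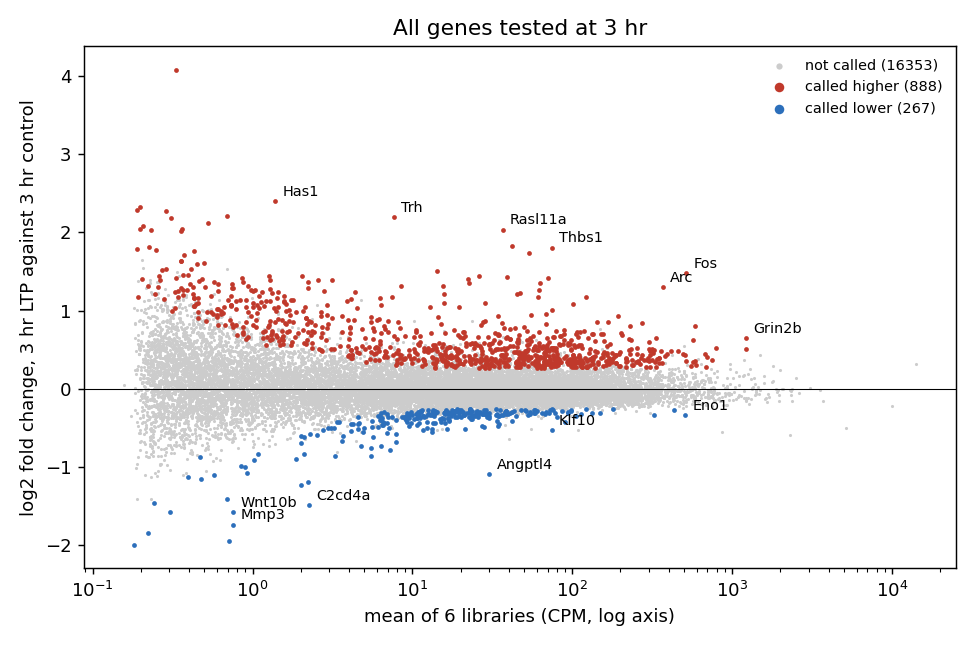
Each point is 1 of the 17508 genes tested, with its mean over 6 libraries (CPM, log axis) on the horizontal axis and its log2 fold change in 3 hr LTP against 3 hr control slices on the vertical axis. The 888 genes called higher reach further from zero than the 267 called lower, and Eno1 is among the most abundant genes that fell.

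The number of calls depended on which libraries entered. Without LTP replicate 2 it was 2170, and without LTP replicate 1 it was 331. It was 313, 228 and 415 without control replicate 1, 2 or 3, where falls numbered 46, 18 and 45. Without LTP replicate 3 there were 835 rises and 494 falls. With animal as a block, falls numbered 426 and rises 1236. Offsets for GC content and exonic length gave 938 rises and 523 falls, so that rises made up 64.2% of calls in place of 76.9%.

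**Figure D2:**
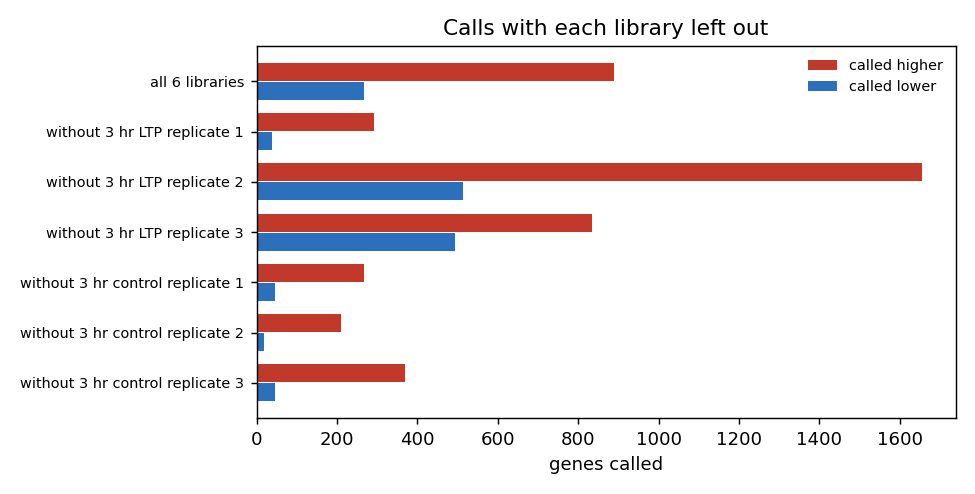
Bars give the number of genes called higher and lower at 3 hr with all 6 libraries and with each library left out. Leaving out LTP replicate 2 gave the most calls, 1656 higher and 514 lower, and leaving out control replicate 2 gave the fewest, 210 higher and 18 lower.

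Among protein-coding genes that averaged 1 CPM or more, the largest rises were in genes of varied function, among them matrix and secreted proteins and transcription factors. Has1, a synthase of the matrix polysaccharide hyaluronan, had 0.387, 0.542 and 0.390 CPM in controls and 2.89, 1.81 and 2.28 CPM in LTP slices, a log2 fold change of 2.4 (SE 0.246, adjusted p = 0.00278, edgeR). Trh, the precursor of thyrotropin-releasing hormone, had 3.96, 2.88 and 1.40 CPM in controls and 12.8, 13.5 and 11.2 CPM after LTP (log2 2.20, SE 0.279). Trh varied more between controls than between LTP libraries. That groups do not overlap is part of the rule by which the largest changes were chosen.

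Rasl11a, a small Ras-like GTPase, was among the rises with the smallest p. It rose from 16.2, 14.0 and 13 CPM to 61.0, 59.4 and 56.7 CPM (log2 2.04, SE 0.0935, adjusted p = 3.21e-05, edgeR). Ccn1, a matricellular protein that binds integrins, went from 20.5, 18.3 and 16.5 CPM to 71.6, 60.5 and 63.6 CPM. Thbs1, a thrombospondin that astrocytes secrete and that promotes synapse formation, went from 41.7, 34 and 23.3 CPM to 122.9, 109 and 114 CPM. Replicates of a group lay close together in these genes relative to the shift, with log2 fold changes of 1.82 (SE 0.101) for Ccn1 and 1.80 (SE 0.176) for Thbs1.

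Fos, a subunit of the AP-1 transcription factor, had 258, 303 and 253 CPM in controls and 758, 721 and 786 CPM after LTP (log2 1.48, SE 0.0828). Btg2, an antiproliferative regulator of mRNA deadenylation, varied little between replicates, at 36.1, 35.6 and 35.1 CPM against 88.1, 95.1 and 88.6 CPM (log2 1.35, SE 0.0605, adjusted p = 3.21e-05, edgeR). Txndc11, a thioredoxin-domain protein of the endoplasmic reticulum, rose from 40.1, 37.2 and 37.5 CPM to 103, 91.5 and 112 CPM (log2 1.42). Tinf2, a subunit of the telomere-capping shelterin complex, rose by 1.74, but 31.2% of its exonic bases overlap Gmpr2. Klf4, Npas4 and Egr2, transcription factors of the early response, had log2 fold changes of 1.44, 1.43 and 1.40, as had the orphan receptor Gprc5a with 1.44. Rnf217, a ubiquitin ligase of the RING-between-RING kind, rose with little spread, from 49.6 ± 2.26 to 99.5 ± 6.21 CPM (SD, n = 3). Apart from Btg2 and Rnf217, which were named for their small p, these were the 12 largest rises, of which 11 kept their call in each of the 15 other fits or left-out libraries. Gprc5a lost it without LTP replicate 1 and without control replicate 2 or 3.

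**Figure D3:**
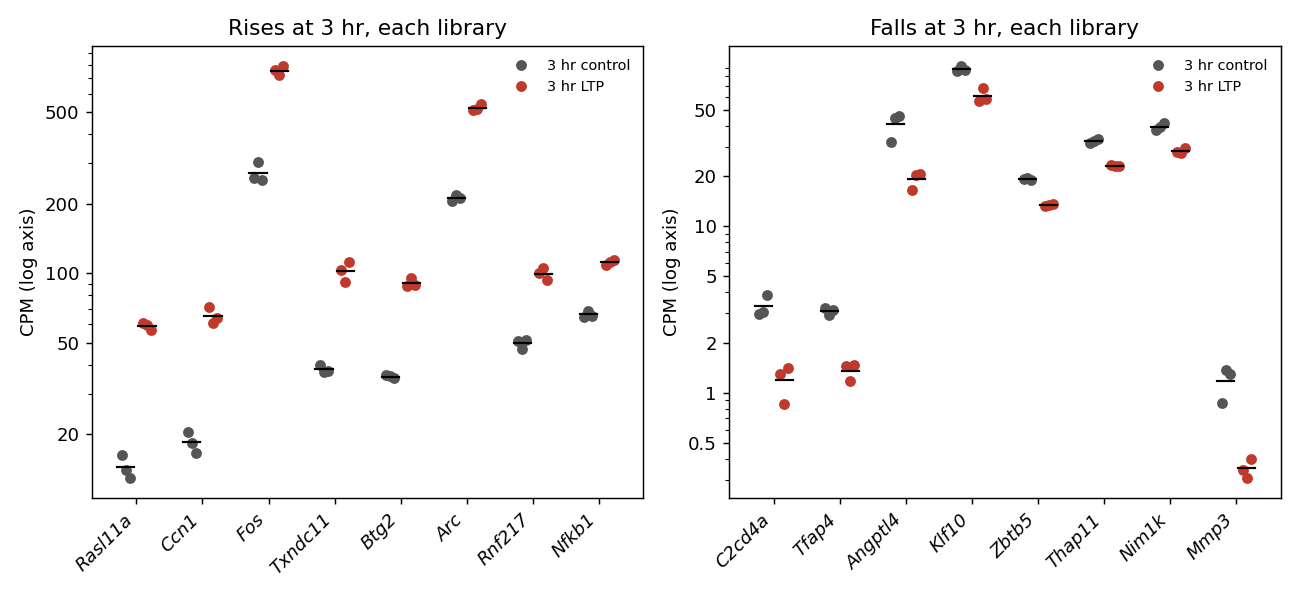
Points are single 3 hr libraries in CPM on a log axis, grey for control and red for LTP slices, and bars are group means (n = 3). The genes were chosen among calls with the smallest p. Arc, which was used to select the slices, had 205 to 218 CPM in controls and 509 to 543 CPM in LTP slices. Thap11 had 31.9 to 33.5 and 23.0 to 23.5 CPM.

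The cAMP response element (CRE), to which CREB binds, has the palindromic sequence TGACGTCA. It was searched, as exact letters, in RefSeq promoters (build GRCm38.p6) that run from 250 bases before to 50 bases after the start site, which were matched by symbol to 12222 of the genes tested. The letters stood in the promoter of 37 of 541 genes called higher (6.84%), of 3 of 210 called lower (1.43%) and of 412 of all 12222 (3.37%). With single libraries left out, the share ran from 4.97% to 10.5% among rises and from 0% to 2.86% among falls. The 8 largest rises that hold it are shown on the gene's strand, with TGACGTCA in capitals and its flanks in lower case, because CREB binds it and is activated through cAMP, which forskolin raises.
Has1 (chr17:17855253-17855282, minus strand): cagacttgtccTGACGTCAgccctcctcca
Tinf2 (chr14:55681855-55681884, minus strand): aggggacctcgTGACGTCAcagctccctcc
Btg2 (chr1:134079303-134079332, minus strand): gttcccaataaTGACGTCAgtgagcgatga
Pax6 (chr2:105668809-105668838, plus strand): tctggccgccgTGACGTCAtccgcgcccgg
Areg (chr5:91139527-91139556, plus strand): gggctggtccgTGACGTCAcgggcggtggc
Cartpt (chr13:99900777-99900806, minus strand): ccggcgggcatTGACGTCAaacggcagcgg
Zdbf2 (chr1:63273199-63273228, plus strand): cgcaccttcgcTGACGTCAgagctgcagtg
Maff (chr15:79347480-79347509, plus strand): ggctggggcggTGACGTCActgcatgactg

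The first base of the element lay between 166 bases (Btg2) and 29 bases (Maff) before the start site. The genes belong to several groups described here: Has1 to the matrix, Cartpt and Areg to secreted peptides and growth factors, Pax6 and Maff to transcription factors. Lmcd1, Tmem251 and Zfand2b, the 3 falls with these letters, fell by 0.54, 0.38 and 0.28 on the log2 scale. The core TGACG on either strand, which includes every full element, was in 43.6% of promoters of rises, in 60.9% of the 46 that rose more than 2-fold, in 29.0% of those of falls and in 33.4% of all. TGANTCA, the letters that AP-1 binds, were in 5.18%, 8.70%, 6.19% and 6.46% of the same sets, and the CArG box of serum response factor in 1.48%, 2.17%, 3.33% and 1.59%. A match describes the letters of the window and is not evidence of binding.

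Genes were then grouped into 53 lists by function, chosen with earlier results of these data known, for which the protein-coding background was 4.58% called higher, 1.76% called lower and a median log2 fold change of -0.02. Of 30 immediate early transcription factors, 22 rose, 1 fell and 7 were not called, with a list median of 0.73, and with single libraries left out from 14 to 24 rose. The list also holds Btg2, described above as a regulator of mRNA deadenylation, and Crem, which is counted again among the negative regulators of signalling. Besides Btg2 and Fos, Nfil3, a bZIP repressor, rose from 27.6 ± 0.951 to 47.4 ± 1.47 CPM (SD, n = 3). Klf10, a zinc finger factor first known as a TGF-beta inducible early gene, went the other way. It had 85.5, 91.4 and 87.1 CPM in controls and 56.9, 67.4 and 58.5 CPM in LTP slices, a log2 fold change of -0.53 (SE 0.0757, adjusted p = 0.00953, edgeR). At 1 hr its value was -0.36. The median of the list was 0.75 at 1 hr.

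Of 28 activity-regulated synaptic and secreted effectors, 10 rose and 0 fell (median 0.28), or 8 of 26 without Arc and Homer1. Both were used to select the slices, so their 3 hr values are given here without a p-value. Arc, which binds the endocytic machinery and controls AMPA receptor number, had 205, 218 and 212 CPM in controls and 509, 513 and 543 CPM after LTP (log2 1.30). Inhba, which encodes the activin subunit, rose from 12.8 ± 0.230 to 26.4 ± 2.58 CPM, and Gem, a GTPase that limits calcium channels, from 37.8 ± 4.63 to 84.9 ± 6.19 CPM (SD, n = 3). Homer1, a postsynaptic scaffold, had 452, 444 and 380 CPM in controls and 698, 917 and 613 CPM in LTP slices (log2 0.80). Hprt, a housekeeping gene, had 131, 122 and 107.03 CPM against 103, 116 and 92.7 CPM, and its stability by qPCR was also required of the slices.

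Of 33 genes listed as negative regulators of signalling, 20 rose and 0 fell (median 0.33). Gadd45g, a stress sensor, is in the list although it can activate p38 kinase signalling. It rose from 36.7, 37.9 and 39.1 CPM to 73.2, 67.6 and 78.2 CPM. Sik1, a kinase that keeps the CREB coactivators out of the nucleus, rose from 27.7, 26.3 and 27.5 CPM to 64.1, 52.1 and 72.9 CPM (log2 1.21, SE 0.114). Its paralogue Sik2 had a log2 fold change of 0.59, and Ppp1r15a, which directs a phosphatase to the translation factor eIF2-alpha, a value of 0.66. With each library left out in turn the list had from 10 to 22 rises. The cAMP pathway list, which shares phosphodiesterases with it, held 7 rises and 0 falls among 59 genes, or 4 rises with GC and length offsets and from 1 to 9 with single libraries left out. Its leading member Pde4b, a phosphodiesterase that degrades cAMP, rose from 250, 271 and 224 CPM to 347, 361 and 350 CPM (log2 0.51, SE 0.0747). Pde4d and Pde4a rose by 0.35 and 0.50, and Akap12, a kinase anchoring protein, by 0.34. Without LTP replicate 1, and without each control replicate, Pde4a and Pde4d were not called.

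**Figure D4:**
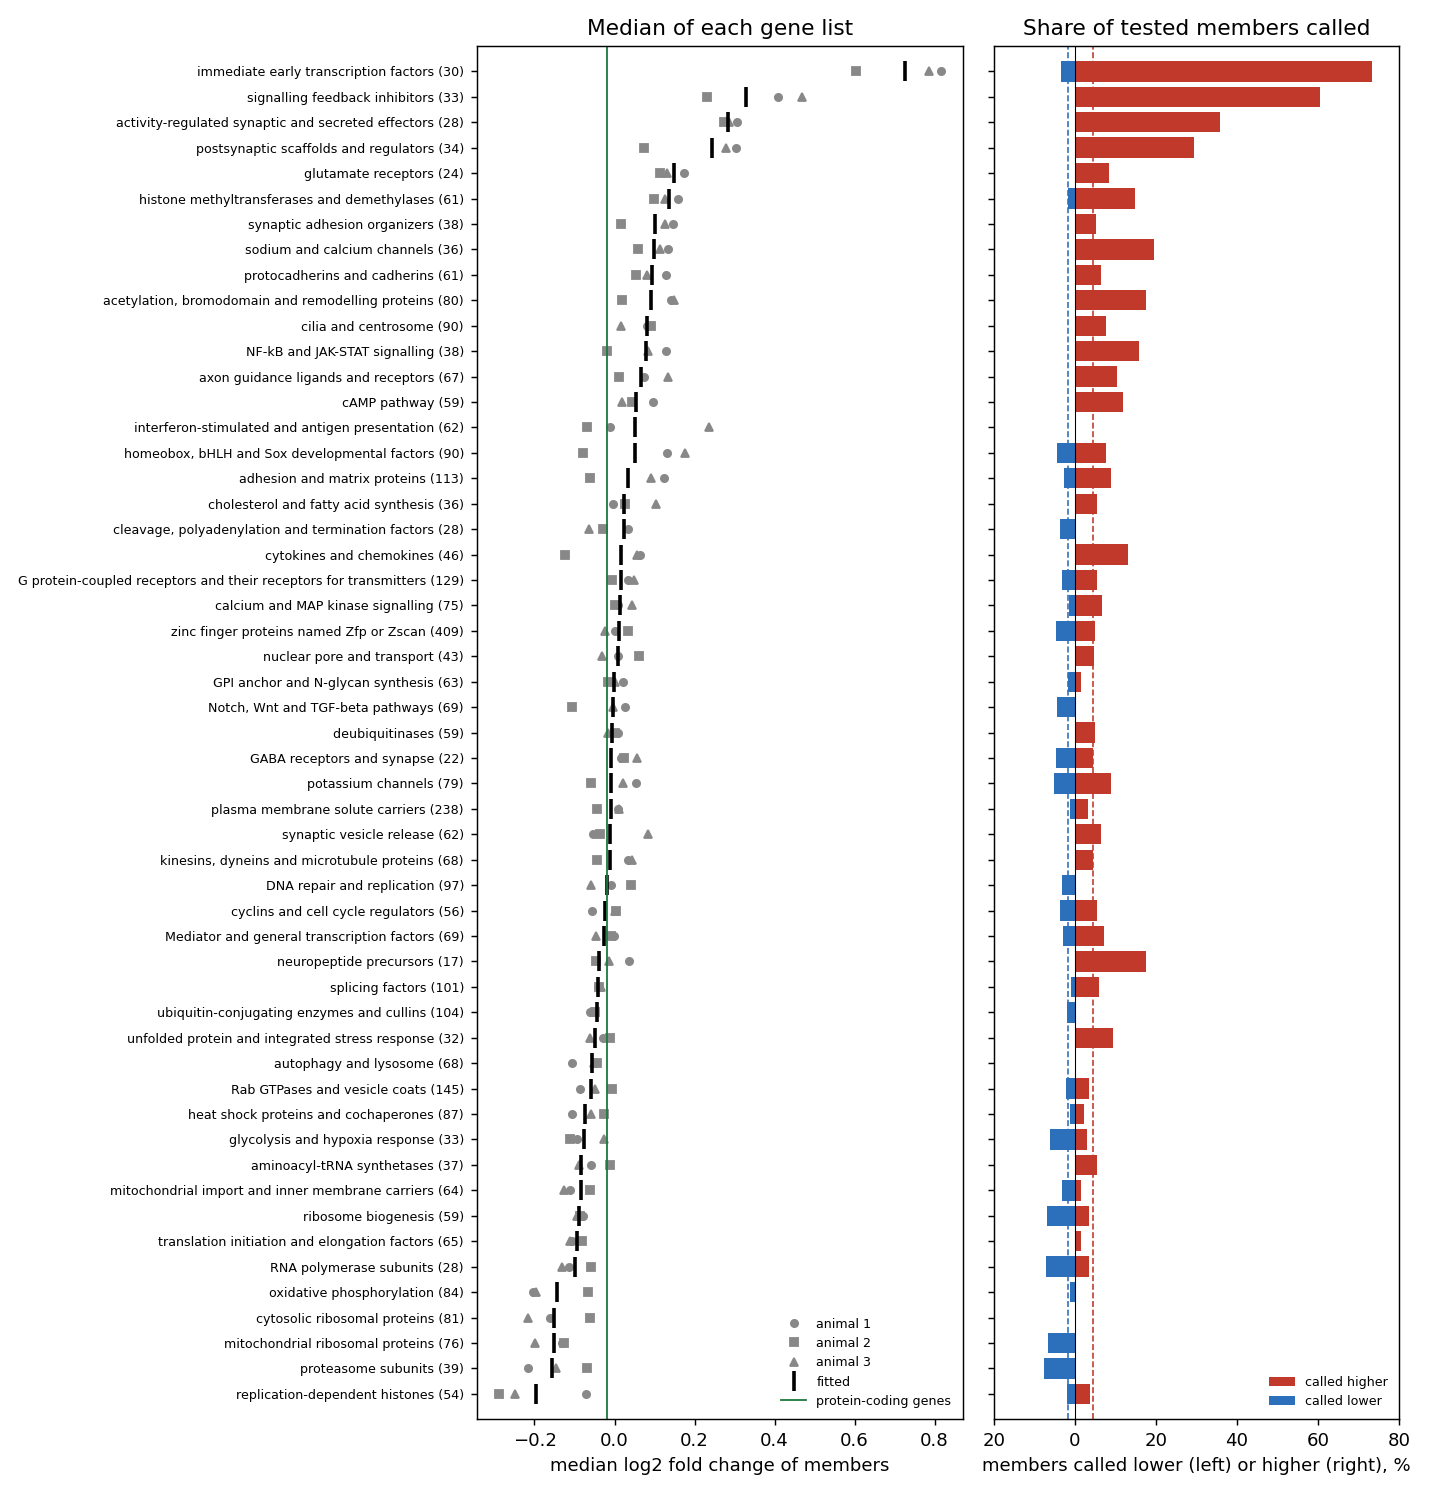
On the left, each of 53 gene lists (number of genes tested in parentheses) is shown with the median log2 fold change of its members in each animal (points), in the fit (bar) and over protein-coding genes (line). On the right, bars give the share of members called higher (to the right) or lower (to the left), with dashed lines at the protein-coding background of 4.58% and 1.76%. Immediate early transcription factors lie at the top with 0.73, and replication-dependent histones at the bottom with -0.20, next to the proteasome, ribosomal and oxidative phosphorylation lists.

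Genes of the postsynaptic density formed a second group of rises, of smaller size. Of 34 scaffolds and regulators, 10 rose, one of them Homer1, used to select the slices, and 0 fell, with a median of 0.24, and of 0.30, 0.07 and 0.28 in animals 1, 2 and 3. Sipa1l1, a spine-shaping GTPase activator, rose from 261, 250 and 266 CPM to 384, 346 and 379 CPM (log2 0.51, SE 0.0633, adjusted p = 0.00544, edgeR). Dlg2 and Cnksr2, scaffolds that gather receptors and kinases, rose by 0.28 and 0.35. With GC and length offsets the median was 0.15 and 8 members rose. Leaving out a library moved the count from 2 to 20, and the median from 0.13 to 0.30.

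Of 24 glutamate receptor genes, 2 rose, or 4 with the animal block and from 1 to 6 with single libraries left out. Those called, Grin2b and Grin2a, encode GluN2 subunits of the NMDA receptor. Grin2b had 919, 944 and 993 CPM in controls and 1512, 1328 and 1619 CPM after LTP (log2 0.64, SE 0.0835, adjusted p = 0.00633, edgeR). Its call stood in each of the 15 alternatives, with a log2 value of 0.40 under GC and length offsets. Grin2a had 264, 260 and 283 CPM and 394, 330 and 388 CPM (log2 0.46), and lost its call with GC and length offsets, with and without the animal block, and without LTP replicate 1 or control replicate 1 or 2. At 1 hr the log2 values of Grin2b and Grin2a were 0.11 and -0.02, and the difference between the times had an adjusted p of 0.17 and 0.39 in the edgeR interaction model.

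Sodium and calcium channel genes rose in 7 of 36 cases, 0 fell, and 6 of the 7 were pore subunits of voltage-gated calcium channels. Cacna1e, of the R-type channel, rose from 642, 611 and 703 CPM to 975, 850 and 971 CPM (log2 0.52, SE 0.0814). Cacna1d and Cacna1b, of the L-type and N-type channels, rose by 0.54 and 0.45, and the sodium channel gene Scn8a by 0.44. With GC and length offsets the value of Cacna1e was 0.28, without control replicate 2 its call was lost, and with single libraries left out the list held between 0 and 11 rises. Potassium channel genes went both ways, with 7 rises and 4 falls among 79, or from 2 to 15 rises and from 0 to 5 falls with single libraries left out. Kcnq3, a subunit of the M-current channel, rose from 192 ± 6.44 to 273 ± 19.5 CPM and Kcnk1, a leak channel, fell from 108 to 89.1 CPM on average, although that call was lost in 7 of 15 alternatives.

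Few presynaptic and inhibitory genes were called. In the list of vesicle release genes 4 of 62 rose, close to background, led by Pclo, a giant active zone scaffold, from 279, 244 and 256 CPM to 386, 364 and 474 CPM (log2 0.65). Among 22 GABA receptor and synapse genes, Gabrg3 rose by 0.27 and Gabra4 fell by 0.26. Of 67 axon guidance genes 7 rose and 0 fell, with Epha6 at 0.37 and Plxna1 at 0.49, and of 38 synaptic adhesion organizers 2 rose, Nrxn3 at 0.40 and Lrrtm2 at 0.33. With single libraries left out, rises numbered from 1 to 14 for vesicle release, from 0 to 11 for axon guidance and from 0 to 9 for adhesion organizers.

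Adhesion and matrix genes showed rises and falls side by side, 10 and 3 of 113 genes, or 18 and 4 with the animal block, and from 7 to 15 and from 1 to 4 with single libraries left out. Rises included, besides Has1, Ccn1 and Thbs1, the perineuronal net protein Tnr from 108, 102 and 109 CPM to 152, 135 and 153 CPM (log2 0.46). Among genes of enzymes that degrade matrix, Adamts9, Adamts4 and Adamts1 rose by 0.61, 0.50 and 0.37, and 3 others made up the falls of the list. Mmp3 (stromelysin) had 0.861, 1.36 and 1.29 CPM in controls and 0.344, 0.309 and 0.397 CPM in LTP slices (log2 -1.74, SE 0.262, adjusted p = 0.0121, edgeR). Mmp13, a collagenase encoded beside it on chromosome 9, had 0.968, 1.36 and 1.44 CPM against 0.505, 0.617 and 0.662 CPM (log2 -1.08), and the hyaluronidase gene Hyal2 fell by 0.49. Both proteases are near the lower end of detection, and Mmp13 lost its call without LTP replicate 1 and without control replicate 2 or 3.

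Immune signalling genes rose in part. Of 46 cytokine and chemokine genes 6 rose, or 10 with the animal block, which also called 4 lower. With single libraries left out, rises ran from 3 to 9 and the list median from -0.083 to 0.073. Il6 had 8.97, 10.5 and 7.25 CPM in controls and 21.6, 23.6 and 21.1 CPM in LTP slices (log2 1.31, SE 0.128), and the neutrophil chemoattractant Cxcl1 rose by 0.85 and Cxcl2 by 0.51. Of 38 genes of NF-kB and JAK-STAT signalling 6 rose and 0 fell, with from 2 to 10 rises and a median from -0.03 to 0.12 when single libraries were left out. Nfkb1, the p50 subunit, went from 64.8, 68.7 and 65.3 CPM to 109, 112 and 114 CPM (log2 0.75, SE 0.0564, adjusted p = 0.000651, edgeR), and at 1 hr its log2 value was 0.07. Of 62 interferon-stimulated and antigen presentation genes 0 were called by the edgeR test or by DESeq2, and the unadjusted p was below 0.05 for 5. With the animal block 1 was called higher and 2 lower. Irf2, with a log2 fold change of 0.35, and Gbp7, with -0.34, came lowest in p.

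Some genes of chromatin regulation rose, while most were not called. Of 61 histone methyltransferases and demethylases 9 rose and 1 fell (median 0.14), and 15 rose with the animal block. Kmt2c, which methylates histone H3 at enhancers, rose from 140, 131 and 143 CPM to 213, 187 and 215 CPM (log2 0.57), Kmt2e rose by 0.51, the demethylase gene Kdm7a by 0.44 and Kmt2d by 0.72. Kmt2d lost its call without LTP replicate 1 and without control replicate 1 or 2. The arginine methyltransferase Prmt6, of which 23.4% of exonic bases overlap other genes, fell by 0.34. Of 80 acetylation, bromodomain and remodelling genes 14 rose and 0 fell. Ep300, a histone acetyltransferase and CREB coactivator, went from 42.2, 40.6 and 47.9 CPM to 66.0, 62.2 and 72.2 CPM (log2 0.62, SE 0.0851, adjusted p = 0.00837, edgeR). With GC and length offsets this list had 9 rises, 2 falls and a median of 0.032 in place of 0.090, and the methylation list had 13 rises and a median of 0.024. Leaving out a library gave from 1 to 23 rises in the acetylation list and from 3 to 20 in the methylation list.

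Polr2a, the catalytic subunit of RNA polymerase II, rose from 38.6, 34.2 and 35.1 CPM to 57.9, 53.5 and 56.8 CPM (log2 0.64, SE 0.0720). It was the only riser among 28 RNA polymerase subunits, of which Polr3g and Polr2e fell by 0.44 and 0.36. Falls of subunits numbered 4 with GC and length offsets and from 0 to 3 with single libraries left out. Of 101 splicing factors 6 rose and Snrpd3 fell by 0.35, while single left-out libraries gave from 2 to 13 rises and from 0 to 5 falls, and GC and length offsets gave 4 falls. Ptbp1 and Celf2, regulators of alternative exons, rose by 0.68 and 0.60, but 20.7% of the exonic bases of Ptbp1 overlap other genes. Of 28 cleavage, polyadenylation and termination factors 0 rose, and Cstf1, a subunit of cleavage stimulation factor, fell from 31.6 to 25.2 CPM on average. In this list 3 fell with GC and length offsets and from 0 to 3 with single libraries left out. Zinc finger genes of the Zfp, Zbtb and Zscan and related families were called in both directions, 20 higher and 19 lower of 409, and 32 and 29 with the animal block. With single libraries left out there were from 2 to 41 rises and from 1 to 30 falls. Of 54 replication-dependent histone genes 2 rose, 1 fell and 45 had values below zero, with the lowest median of all lists (-0.20, and -0.071, -0.29 and -0.25 in animals 1, 2 and 3). Hist1h4a and Hist1h1a rose by 1.21 and 0.47 and Hist3h2ba fell by 0.36, and with GC and length offsets 8 were called lower.

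Developmental transcription factors also split, 7 higher and 4 lower of 90, or from 4 to 17 higher and from 1 to 8 lower with single libraries left out. Pax6, a paired-box factor of neural progenitors, had 19.5, 19.6 and 15.4 CPM in controls and 40.7, 34.2 and 41.5 CPM in LTP slices (log2 1.10), and Foxc1, a forkhead factor of mural cells and meninges, rose from 2.94 ± 0.478 to 6.01 ± 0.708 CPM (SD, n = 3). Falls were in helix-loop-helix factors. Tfap4, which binds E-boxes, had 3.21, 2.92 and 3.16 CPM in controls and 1.45, 1.17 and 1.46 CPM in LTP slices (log2 -1.19, SE 0.145, adjusted p = 0.00543, edgeR). Tcf15 fell by 0.91, and Id3 and Hes1, which inhibit neuronal differentiation factors, fell by 0.38 and 0.32. The calls of Tcf15, Id3 and Hes1 were lost without LTP replicate 1 and without each control replicate.

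Among protein-coding genes that averaged 1 CPM or more and whose groups did not overlap, the 12 largest falls were mostly of low abundance. C2cd4a, a calcium-binding-domain protein of the nucleus, had 2.99, 3.05 and 3.88 CPM in controls and 1.29, 0.860 and 1.40 CPM in LTP slices (log2 -1.49, SE 0.203, adjusted p = 0.00788, edgeR). Angptl4, a secreted inhibitor of lipoprotein lipase, was more abundant, with 32.0, 45.1 and 46.4 CPM in controls and 16.6, 20.5 and 20.6 CPM in LTP slices (log2 -1.10, SE 0.149). Control replicate 1 was the lowest control and LTP replicate 1 the lowest LTP library of this gene. Il4i1 fell by 1.24, but 86.3% of its exonic bases overlap Atf5, Nup62 and Tbc1d17. Micall2, Fignl2 and Cilp2 fell by 0.87, 0.83 and 0.83, and Tmem86a by 0.76. Of the 12, 4 kept their call in every alternative run, C2cd4a, Tfap4, Angptl4 and Ccne2, and each of the other 8 lost it in 2 to 5 of 15.

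Among the 8 falls with the smallest p, several were small in size and tight between replicates. Zbtb5, a zinc finger repressor, had 19.2, 19.6 and 19 CPM in controls and 13.2, 13.4 and 13.7 CPM in LTP slices (log2 -0.52, SE 0.0682, adjusted p = 0.00664, edgeR). Thap11, a zinc finger factor that acts with the cofactor Hcfc1, had 31.9, 32.6 and 33.5 CPM against 23.5, 23.0 and 23.0 CPM (log2 -0.49, SE 0.0658). Nim1k, a kinase related to AMPK, had 37.9, 39.5 and 42.0 CPM against 28.1, 27.7 and 29.5 CPM (log2 -0.48). All 8 falls with the smallest p kept their call in all 15 alternatives.

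Few genes of the proteasome, the ribosomes and respiration were called, and the list medians were below zero. Of 39 proteasome subunits 3 fell and 0 rose (median -0.16). Psmb5, the chymotrypsin-like active subunit, went from 37.2, 40.2 and 38.1 CPM to 31.1, 28.7 and 30.7 CPM (log2 -0.35, SE 0.0700), Psmc2, an ATPase of the cap, fell by 0.28, and Psmb10, a subunit of the immunoproteasome, by 0.33. Of 76 mitochondrial ribosomal proteins 5 fell and 0 rose (median -0.15), or 9 fell with the animal block. Mrps26 had 43.8, 43.1 and 45.1 CPM in controls and 36.8, 33.8 and 35.0 CPM in LTP slices (log2 -0.32). Left-out libraries moved the count of falls from 0 to 7 for the proteasome and from 0 to 15 for the mitochondrial ribosome.

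Of 81 cytosolic ribosomal proteins 0 were called by edgeR, while DESeq2 called 2 lower and the unadjusted p was under 0.05 for 32. Their median was -0.15, and -0.16, -0.06 and -0.22 in animals 1, 2 and 3. Rpl12 and Rps10 had the smallest p, at -0.24 and -0.26, and 28.7% of the exonic bases of Rps10 overlap other genes. Of 84 nuclear genes of oxidative phosphorylation 1 fell, Ndufv3 of complex I, by 0.28 (list median -0.14, and -0.20, -0.07 and -0.20 by animal). With GC and length offsets 7 ribosomal and 8 oxidative phosphorylation genes were called lower, and with single libraries left out from 0 to 3 and from 0 to 7. These medians were below zero in every alternative run, and those of ribosome biogenesis (-0.088) and translation factors (-0.095) were too. Of 65 translation factors 1 rose and 0 fell, also 0 with DESeq2, and 14 had a value below zero at an unadjusted p below 0.05. In the glycolysis and hypoxia list Eno1, the enolase of glycolysis, had 578, 583 and 550 CPM in controls and 422, 420 and 508 CPM in LTP slices (log2 -0.34, SE 0.0838, adjusted p = 0.0617, edgeR). Ankrd37, a hypoxia target with 26.4% of its exonic bases in overlap with other genes, fell by 0.51, and the glucose transporter gene Slc2a1 rose by 0.44.

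Of 56 cyclins and cell cycle regulators 3 rose and 2 fell. These were 5.36% and 3.57%, against 4.58% and 1.76% of protein-coding genes. Ccne2, cyclin E2, which drives entry into S phase, had 9.57, 9.75 and 8.36 CPM in controls and 6.18, 5.31 and 4.58 CPM in LTP slices (log2 -0.78, SE 0.124). Pole3, Rpa2 and Fance, of the DNA repair and replication list, fell by 0.34, 0.33 and 0.44, with 3 falls and 0 rises among 97 genes, or from 0 to 3 falls and from 0 to 4 rises with single libraries left out. Cdt1, which licenses replication origins, and Dut, which removes dUTP, fell by 0.62 and 0.35 and were picked after their values were seen. The rises of the cell cycle list were Ccnl1 and Ccnk at 0.69 and 0.72, cyclins of kinases of transcription and splicing, and the transcription kinase gene Cdk12 at 0.33.

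A few further genes called lower encode ligands, receptors and single proteins of other roles. Of 69 genes of the Notch, Wnt and TGF-beta pathways 3 fell and 0 rose, or 6 fell with the animal block and 5 with DESeq2. Wnt10b had 0.990, 1.10 and 1.31 CPM in controls and 0.459, 0.375 and 0.291 CPM in LTP slices (log2 -1.58, SE 0.241, adjusted p = 0.0125, edgeR), and at 1 hr it had -1.02. Wnt7b and Bmp3 fell by 0.31 and 0.50. The list median was -0.0039, and with single libraries left out it had from 0 to 7 rises and from 1 to 5 falls. Bbc3 (Puma), a BH3-only protein that starts apoptosis, had 6.15, 7.0 and 8.30 CPM in controls and 4.13, 3.02 and 4.66 CPM in LTP slices (log2 -0.87, SE 0.172). Bax, the pore-forming protein on which it acts, fell by 0.32, and the tumour necrosis factor receptor genes Tnfrsf1a and Ltbr fell by 0.43 and 0.43. These 3 were also picked after their values were seen. Drd1, the D1 dopamine receptor, and Slc30a1, a zinc exporter, fell by 0.61 and 0.36. For the lists by function described here, the cytosolic ribosome and translation factors apart, a direction with 0 calls also had 0 with DESeq2. Exceptions were 1 fall in axon guidance, 1 rise in DNA repair and 2 falls among cytokines. Up to 7 members of these lists had an unadjusted p below 0.05 in a direction with 0 calls.

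The genes that fell were shorter than those that rose. The median exonic length of protein-coding genes was 7234 bases for rises, 2968 for falls and 4455 for all tested, and the median number of exons was 13, 5 and 9. Genes were divided into 5 equal bins by exonic length. In the bin of the longest genes 323 rose and 3 fell, or 10.9% and 0.102%. In that of the shortest 68 rose and 104 fell, or 2.30% and 3.52%. The median log2 fold change went from -0.097 in the shortest to 0.080 in the longest bin. In the longest bin it was 0.092, 0.064 and 0.087 in animals 1, 2 and 3, and in the shortest -0.11, -0.092 and -0.099. At 1 hr the shortest and longest bins had -0.041 and 0.025. The offsets for GC content and length, which are built to remove such a trend, left -0.095 and -0.025, with median lengths of 5320 bases for rises and 3564 for falls.

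**Figure D5:**
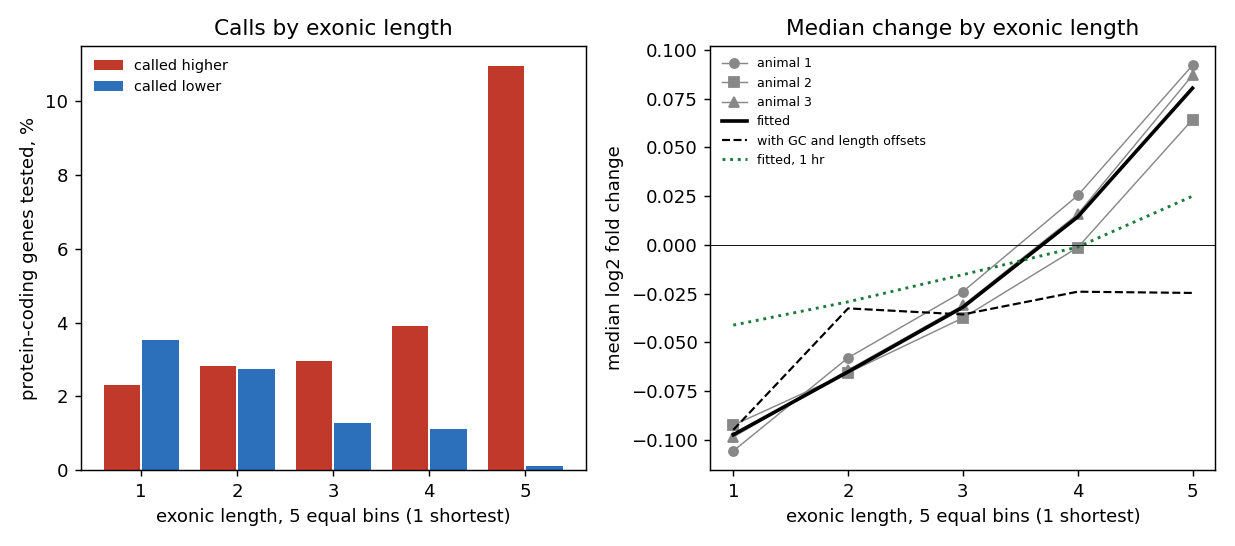
On the left, bars give the percentage of tested protein-coding genes called higher or lower in each of 5 bins of exonic length. On the right, lines give the median log2 fold change in each bin, by animal, in the fit, with offsets for GC content and length, and at 1 hr. All 3 animals go from between -0.11 and -0.092 in the shortest bin to between 0.064 and 0.092 in the longest.

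GC content behaved otherwise. Falls had a median of 53.4% and rises of 49.4%, against 50.3% for all, but the trend with GC content was not shared by the animals. In the most GC-rich of 5 bins the median log2 ratio was 0.031 in animal 1, -0.14 in animal 2 and -0.0059 in animal 3, and in the most GC-poor it was -0.061, 0.068 and -0.024. Lists differed in length, from a median of 555.5 bases for replication-dependent histones to 10281 for postsynaptic scaffolds, with 1781 for ribosomal and 2820 for proteasome genes. The immediate early factors had 3380.5 bases, negative regulators of signalling 3582 and GABA receptor and synapse genes 6451. Their median log2 fold changes were 0.73, 0.33 and -0.0081. With the offsets the median of ribosomal genes was -0.16 in place of -0.15, and that of proteasome genes was -0.15 in place of -0.16, with 3 falls in both fits. The log2 values of Pclo, Celf2, Kmt2c and Scn8a became 0.42, 0.37, 0.34 and 0.27 with the offsets, and those of Nrxn3, Pde4d, Gabrg3 and Dlg2 became 0.26, 0.23, 0.16 and 0.11. Pde4d, Gabrg3, Dlg2 and Grin2a were then no longer called. The part that length has in single lists was not tested.

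Most changes pointed the same way at 1 hr, in libraries from the other time point. The labels number the animals 1 to 3 at both times without saying whether they are the same animals, and they were treated as different. Of 867 rises with a 1 hr value, 772 were also above zero at 1 hr (89.0%), and of 263 falls 221 were below it (84.0%), where the same sign was shared by 66.0% of all 17071 genes measured at both times. The median at 1 hr was 0.16 for the rises and -0.10 for the falls. Calls at both times were made for 86 rises and 1 fall. The test of the difference between the LTP effects at 3 hr and 1 hr, run without 1 hr control replicate 2, called 11 of 18584 genes (0.0592%). The 1 hr values were likewise fitted without that library, in 5 libraries, and the authors also left it out. Named genes among the 11 are given in the closing section.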

How the data were processed

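RNA was measured in hippocampal slices by stranded total RNA-seq after depletion of ribosomal RNA. According to the study's methods, the authors aligned reads with STAR to mm10 and counted them per gene. The deposited values are raw counts, not normalized, for 41091 versioned Ensembl IDs, of which 20554 matched GENCODE M21 with version and 19663 without, and 874 did not match. Whether counting used strand is not given in the sources used here, so overlapping genes are uncertain. Libraries held at least 39005797 counts, where 3 counts correspond to 0.0585 to 0.0795 CPM, so changes below that level were not detectable, and replicate spread exceeded counting error (chi-square per degree of freedom from 9.49 to 85.6).

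The 6 libraries were fitted with edgeR 4.0.16 in R 4.3.3 (filterByExpr, TMM normalization, quasi-likelihood F test without an animal term, Benjamini-Hochberg adjustment). A call required a fold change above 1.2 together with an adjusted p below 0.1. The difference between times was fitted in 1 model of 11 libraries without a fold minimum. SE is that of a log2 fold change, and CPM were scaled with TMM. For ratios within an animal, 0.1 CPM was added to each value before log2. Exonic length and GC content came from GENCODE M21 and promoters from RefSeq. On simulated counts of 17305 genes for the 3 hr comparison, the test recovered 96% of changes of 1 on the log2 scale and 67% of changes of 0.5, with 27 false calls. The labels state that LTP and control slices came from the same animal, which pairs the replicate numbers. Deviations of same-animal libraries correlated across genes at 0.05, -0.02 and 0.23, and those of libraries from different animals at -0.31 to 0.25.

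Named genes were the 12 largest rises and falls among called protein-coding genes whose groups did not overlap and which averaged 1 CPM or more, the 8 with the smallest p in each direction, up to 4 called members of each list and direction, and Arc, Homer1 and Hprt. Some genes that met this rule are not reported here. For lists without calls, the members with the smallest p are given as values. Comparisons, members and lists were chosen with earlier results of these data known. Alternatives were DESeq2 1.42.0, limma-voom (limma 3.58.1), other scalings and filters, an animal block, offsets for GC content and length (splines with 5 degrees of freedom), and leaving out each library.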

Additional observations from a re-analysis of the deposited data

Results flagged for a closer look

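The LTP effect at 3 hr minus that at 1 hr differed from zero in 8 of the named genes, Arc included (interaction term in edgeR, adjusted p below 0.1). Without 1 hr control replicate 3, a fit that leaves 1 library in that group, most of these calls were lost. Of all genes tested, 3 or 4 were called without 3 hr LTP replicate 1 or without 3 hr control replicate 2 or 3. The difference was negative in Btg2 (-1.31 on the log2 scale, SE 0.110, adjusted p = 0.000220) and the transcription factor gene Egr2 (-1.06), in which the rise was smaller at 3 hr than at 1 hr. For Arc, which was used to select the slices, the difference was -0.68. It was positive in Nfkb1 (0.69), Txndc11 (1.01), Rasl11a (1.16), Foxc1 (1.25) and Rnf217 (0.83). Of these, Foxc1 had a value below zero at 1 hr (-0.21), and the other 4 had larger values at 3 hr than at 1 hr. Groups of 3 libraries were too small for a test of single outlying libraries.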

How the results depend on the processing

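The direction of each named gene's value was the same in the alternatives run for it, except in the hemoglobin genes Hba-a2 and Hbb-bt, which were not called at 0.08 each. With GC and length offsets they had -0.019 and -0.044, with these offsets and the animal block -0.019 and -0.055, and with single libraries left out from -0.13 to 0.29 and from -0.18 to 0.23, below zero without control replicate 1 or LTP replicate 2. The animal (replicate) block gave 426 falls in place of 267, the block with offsets 622 and the offsets alone 523. An adjusted p under 0.05 left 618 genes, 523 higher and 95 lower. Leaving out single libraries gave from 228 to 2170 calls, from 210 to 1656 rises and from 18 to 514 falls. The other scalings, tools and filters moved these 3 counts by less than 1.5 times. Calls of the difference between 3 hr and 1 hr numbered 11, but 77 with DESeq2, 102 without a filter beyond 1 count and 67 without 3 hr LTP replicate 2. They were fewer without 3 hr LTP replicate 1 or without 3 hr control replicate 2 or 3. They were also fewer without 1 hr control replicate 3, a fit that leaves 1 library in that group. The number was 13 with the block. Median lengths and GC contents of called genes moved by less than 1.5 times in every alternative. The causes of these shifts were not tested. Of the 137 rises and 74 falls that met the naming rule, 78 and 64 lost their call in at least 1 alternative.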
